A study of Rattus norvegicus with 22 samples.

Results

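Interferon-stimulated genes are the genes that cells switch on when an interferon binds its receptor, and 39 of them were followed by name in rat microglia, the resident macrophages of the brain. The 39 gene symbols were looked up in the table of expression values, which holds 17284 genes. It lists 36 of them, and Xaf1, Herc6 and Parp12 are not in it. All 36 passed the filter for testing, at least 1 FPKM in at least 3 samples, as did 9691 genes in total. FPKM is a level in which fragment counts are divided by the length of the transcript and by the size of the library.

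RNA was sequenced from 22 samples of microglia of Sprague-Dawley rats at postnatal day 21, captured from dissociated brain on dishes coated with an antibody to CD11b, a surface protein that other myeloid cells carry too. TIC samples (n = 6) were cultured for 8 days without serum in a defined medium that the labels call TIC. FCS 1d (n = 5), FCS 3d (n = 4) and FCS 5d (n = 4) samples were cultured for the same 8 days with 10% fetal calf serum added for the last 1, 3 or 5 days. Acute samples (n = 3) were taken fresh, with no time in culture. The labels name no transgene or deletion. The design calls the samples of a group biological replicates, but nothing says whether a sample pooled animals or which samples shared them, so p-values measure the spread between these samples. The comparisons ask how culture in defined medium, and serum added to it, change freshly isolated microglia.

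Type I interferons bind a receptor made of Ifnar1 and Ifnar2, whose kinases activate Stat2. It joins Irf9 in a complex that binds the interferon-stimulated response element in the promoters of its target genes. The targets include enzymes and proteins that block viral replication, sensors of foreign RNA, and Irf7 and Usp18, which raise and restrain the response. Interferon gamma acts through Ifngr1 and Ifngr2 and leads to binding at another element, the gamma-activated site. In microglia the type I programme is known from viral infection and from ageing and injured brain.

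Promoter sequences, 250 bases before to 50 bases after the gene start, were found for 26 of the 36 members in RefSeq's annotation of the rat build GRCr8, and no entry was matched for Oas2, Mx2, Ifit2, Adar, Zbp1, Rtp4, Isg15, Usp18, Ddx58 and Dhx58. The core of the response element was searched as GAAANNGAAA on both strands, where N is any base, so that its reverse reads TTTCNNTTTC. Overlapping matches were kept. It was present in 15 of the 26 member promoters (57.7%), against 3.92% of all 33469 promoters of that length. In the 250 bases before the start alone it was in 14 (53.8%), against 3.41% of all. The gamma-activated site, TTCNNNGAA, was in 7 of 26 (26.9%), against 8.87% of all. A match describes letters, not binding. Of the 13 members with a promoter that were higher in TIC than in Acute, 8 held the core, as did 7 of the other 13. The 5 stretches shown run from 160 bases before the start to 20 after it. They belong to members that the results turn on. Irf7 had the highest mean of the members in each cultured group, though not in every library, and Ifit3 and Rsad2 fell most with serum. Oas1a was not called in any serum group against TIC, and Gbp2 is a target of interferon gamma. Capitals mark the core of the response element, on whichever strand it lies. They read 5′ to 3′ along the gene's strand, at chr1:205800004-205800183 (minus), chr1:241527166-241527345 (plus), chr6:48788101-48788280 (minus), chr12:41330306-41330485 (plus) and chr2:234005567-234005746 (plus), in the order listed.
Irf7: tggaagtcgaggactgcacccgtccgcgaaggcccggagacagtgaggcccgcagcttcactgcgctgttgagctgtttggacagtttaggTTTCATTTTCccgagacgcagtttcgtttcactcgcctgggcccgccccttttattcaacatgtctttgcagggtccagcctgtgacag
Ifit3: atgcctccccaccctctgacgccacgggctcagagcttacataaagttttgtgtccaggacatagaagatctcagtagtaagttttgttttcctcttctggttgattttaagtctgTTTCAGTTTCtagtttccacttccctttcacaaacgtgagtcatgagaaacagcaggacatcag
Rsad2: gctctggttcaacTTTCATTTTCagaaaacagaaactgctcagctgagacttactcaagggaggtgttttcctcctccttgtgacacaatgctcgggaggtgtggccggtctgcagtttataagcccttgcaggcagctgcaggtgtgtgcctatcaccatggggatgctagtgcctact
Oas1a: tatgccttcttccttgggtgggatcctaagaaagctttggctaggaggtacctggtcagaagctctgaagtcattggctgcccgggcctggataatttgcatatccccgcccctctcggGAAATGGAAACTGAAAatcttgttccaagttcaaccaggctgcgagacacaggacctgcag
Gbp2: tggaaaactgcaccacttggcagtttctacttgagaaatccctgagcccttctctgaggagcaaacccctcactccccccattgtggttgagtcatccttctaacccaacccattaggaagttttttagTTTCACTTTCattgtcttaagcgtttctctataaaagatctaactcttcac
In Oas1a, 2 cores overlap. In Irf7, Ifit3, Oas1a and Gbp2 the core lay within 69 bases of the start, while in Rsad2 it began 147 bases before it. Several members are neighbours among protein-coding genes of this build: Ifit2 with Ifit3 on chromosome 1, Rsad2 with Cmpk2 on chromosome 6, and Parp9, Dtx3l and Parp14 in a row on chromosome 11.

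Absolute sequencing depth is unknown, because FPKM carry no read totals. The libraries fall apart by summed FPKM, which was 564301 to 696703 in 6 libraries (TIC 5, TIC 6, FCS 1d 5 and the 3 Acute libraries) and 335470 to 434577 in the other 16. Separately, 10 libraries had 934 to 1295 tested genes at 0 and 12 had 353 to 672. The labels state that every condition was spread over both of 2 batches of library preparation and sequencing, but not which sample was in which. The division in summed FPKM is not spread that way, since all Acute libraries are high and all FCS 3d and FCS 5d libraries are low. The division in zeros has libraries of every group on both sides, and whether it is a batch was not tested. As a check of the label, the microglial receptor gene Csf1r had 344 to 681 FPKM in TIC and 1528 to 2760 FPKM in Acute. The 14 listed microglia and macrophage genes summed to 2580 to 6690 FPKM in TIC and 19500 to 33100 FPKM in Acute. Of these 14, limma called 11 lower and 2 higher in TIC than in Acute, at an adjusted p under 0.05. The largest part of the sum in every TIC library was Tyrobp, whose mean was higher in TIC than in Acute. It had 2542 ± 1336 FPKM in TIC (SD, n = 6) and 1117 ± 1128 FPKM in Acute (SD, n = 3), with overlapping ranges. P2ry12, which separates microglia from other macrophages, had 2.65 to 9.89 FPKM in TIC and 321 to 946 FPKM in Acute. Acute libraries also held granulocyte and monocyte markers, with all 19 in the table present and a sum of 2440 to 20100 FPKM. In TIC that sum was 235 to 512 FPKM, with 10 of the 19, S100a9 among them, at 0 in every library. Most of the TIC sum was Mmp9, at 197 to 500 FPKM in TIC and 1.41 to 52.0 FPKM in Acute, and the other 18 markers summed to 12.1 to 51.2 FPKM in TIC and 2440 to 20000 FPKM in Acute.

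Of the 36 members, 25 had at least 1 FPKM in all 22 libraries. The 7 that were at 0 somewhere were Oas1a, Oas2, Isg20, Bst2, Ifitm3, Zbp1 and Trim25. Since a listed 0 can also arise where no level could be estimated, groups with zeros are given by library. In TIC the highest members on the FPKM scale, which is per length, were Irf7 at 216 ± 145 FPKM, Isg15 at 93.5 ± 25.5, Oasl at 90.9 ± 38.1 and Usp18 at 60.9 ± 23.1 (SD, n = 6). The levels of Isg15 and Oasl did not differ beyond their spread, and Irf7 ranged so widely that it overlapped all 3. In FCS 5d, Irf7 at 63.8 ± 39.4 FPKM and Mx1 at 46.5 ± 21.7 FPKM led, within their spread of each other (SD, n = 4). In Acute the leaders were other genes, Ifi35 at 86.0 ± 10.2 FPKM and Irf1 at 62.0 ± 11.2 FPKM (SD, n = 3), with Irf7 at 21.6 ± 14.8 FPKM.

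**Figure D1:**
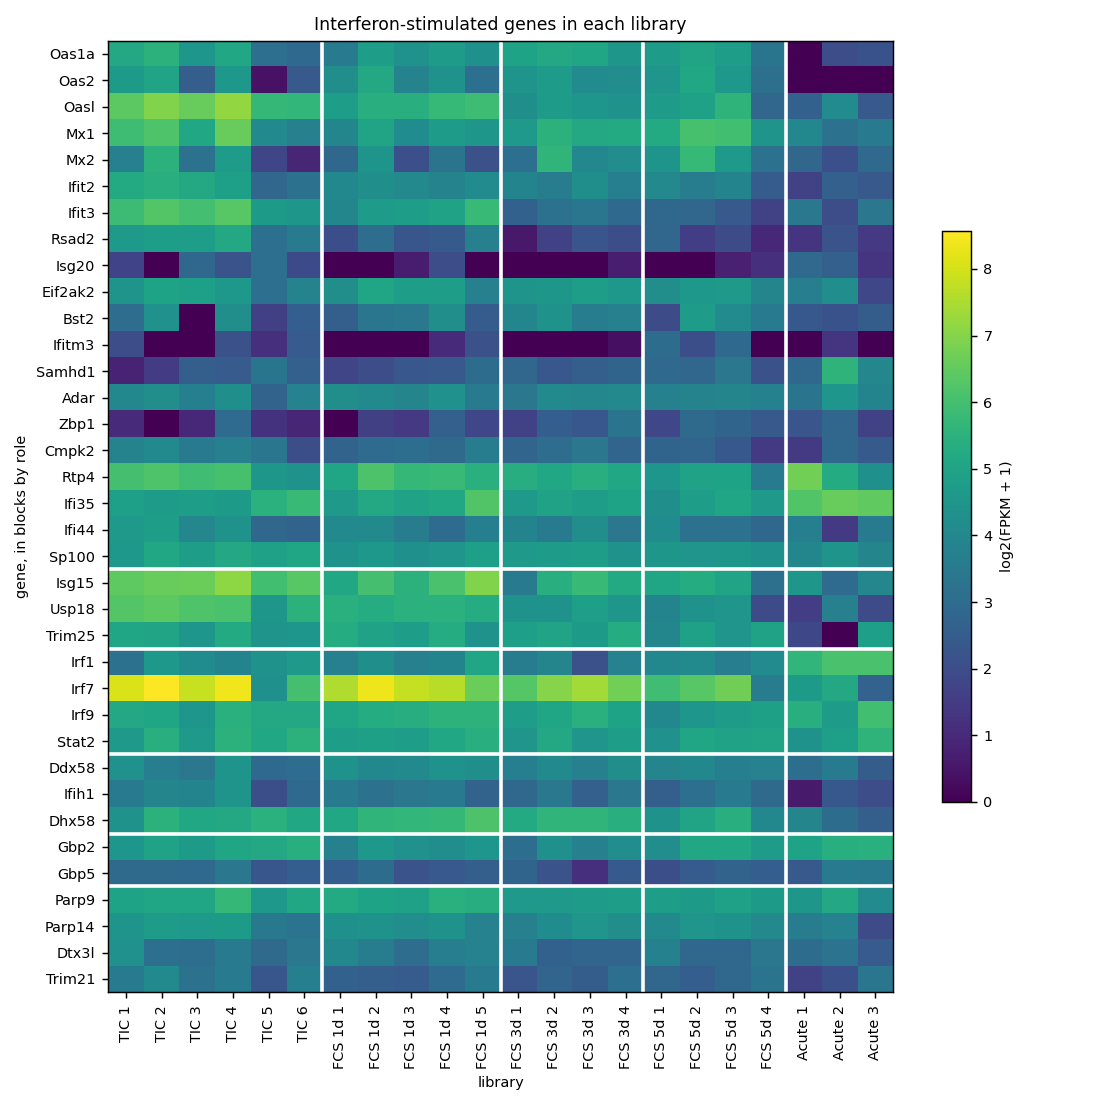
Level of each of the 36 members (rows, in blocks by role from antiviral effectors at the top to the ADP-ribosylation and ubiquitin enzymes at the bottom) in each of the 22 libraries (columns, in the order TIC, FCS 1d, FCS 3d, FCS 5d, Acute), as log2(FPKM + 1) by colour. Irf7 is brightest in TIC 1 to 4 and dimmer in TIC 5 and TIC 6, and Oas2 is at 0 in the 3 Acute libraries.

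In TIC against Acute, more of the 36 members were called higher in TIC than lower. There were 18 higher and 3 lower (50.0% and 8.33%), with 15 not called, while among all 9691 tested genes 14.7% were called higher and 27.7% lower, 42.4% in either direction. A gene was called at an adjusted p under 0.05 in limma, fitted to log2(FPKM + 1) of all 22 libraries. The median log2 change of the members was 0.93, against -0.29 for all tested genes. Rescaling the libraries by the median of ratios brought the median of all genes to 0 and that of the members to 1.22, and called 20 members higher and 3 lower. It called 2022 genes higher and 1981 lower, where the values as deposited gave 1424 and 2682. In bulk RNA, a change in the mixture of cells and a change in the RNA of each cell cannot be told apart: fewer cells of a type and less RNA per cell look alike. The lymphocyte and NK cell markers summed to 83.7 to 227 FPKM in TIC and 239 to 647 FPKM in Acute (15 of 16 detected somewhere in Acute, 6 of 16 in TIC), and the plasmacytoid dendritic cell markers to 17.7 to 44.7 FPKM in TIC and 29.0 to 131 FPKM in Acute. The part of these cells in the members' levels was not tested.

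The comparison is also one of summed FPKM, since all 3 Acute libraries and only TIC 5 and TIC 6 are high. Between those 5 libraries alone, limma called 3 members higher (Oasl, Isg15 and Dhx58) and 0 lower, 8.33% of 36, against 9.8% of all genes in either direction, 5.28% higher and 4.52% lower. With the division as a term in the fit, 11 members were higher and 2 lower, against 20.3% of all genes higher and 18.2% lower. Without TIC 5 and TIC 6, an alternative chosen after seeing the data, 21 were higher and 3 lower, against 12.2% and 32.8% of all genes. Values between high libraries are given below for the members described one by one.

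All 3 members of the ISG15 system were higher in TIC, where 14.7% of all tested genes were called higher. Isg15, a ubiquitin-like protein that is joined to other proteins during the response, had 61.2 FPKM at the lowest, 90.6 at the median and 138 at the highest of the TIC libraries, against 22.3, 7.03 and 14.5 FPKM in Acute. No TIC library reached down to an Acute one. Its log2 change was 2.69 ± 0.48 (SE; adjusted p = 0.00011), and between high libraries 2.32 ± 0.53 (adjusted p = 0.033). Usp18, the protease that removes ISG15 and dampens the receptor, had 22.3, 69.8 and 83.3 FPKM at the lowest, median and highest in TIC, against 1.97, 12.2 and 3.00 FPKM in Acute. The groups were again apart, with TIC 5 the lowest of its group. The change was 3.40 ± 0.48 (SE; adjusted p = 5.3e-06), and 2.59 ± 0.72 between high libraries (adjusted p = 0.063). Trim25, a ubiquitin ligase that activates the RNA sensor RIG-I, had 20.5, 26.3 and 36.7 FPKM in TIC, against 2.60, 0 and 27.7 FPKM in Acute. Acute 3 lay inside the TIC range, and the change of 2.56 ± 0.58 (SE; adjusted p = 0.0011) became 1.44 without Acute 2 and 3.86 without Acute 3. Between high libraries it was 2.24 ± 1.22 (adjusted p = 0.28).

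Among the 20 antiviral effectors, 10 were higher in TIC, 2 were lower and 8 were not called. Of all tested genes, 14.7% were higher and 27.7% lower. The oligoadenylate synthetases sense double-stranded RNA and activate its breakdown, and Oasl is a relative that lacks the enzyme activity in human. Oasl had 49.7, 88.9 and 145 FPKM at the lowest, median and highest in TIC, against 5.33, 16.7 and 4.26 FPKM in Acute. All TIC libraries lay above all Acute ones, at a log2 change of 3.34 ± 0.47 (SE; adjusted p = 4.8e-06) and of 2.61 ± 0.60 between high libraries (adjusted p = 0.033). Oas2 was listed at 0 in all 3 Acute libraries. In TIC it had 0.343 FPKM in TIC 5 and 4.26 FPKM in TIC 6, then 5.10, 22.6, 24.4 and 31.3 FPKM in the others, so that no fold is given (adjusted p = 0.0006, and 0.22 between high libraries). Oas1a had 6.66, 27.4 and 44.5 FPKM at the lowest, median and highest in TIC, against 0, 3.08 and 3.44 FPKM in Acute. The groups did not overlap, with a log2 change of 3.00 ± 0.54 (SE; adjusted p = 0.00011) and of 1.64 ± 0.77 between high libraries (adjusted p = 0.22).

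The interferon-induced proteins with tetratricopeptide repeats, which bind viral RNA, also differed. Ifit3 had 22.4, 60.7 and 80.3 FPKM at the lowest, median and highest in TIC, against 9.89, 3.07 and 9.52 FPKM in Acute. TIC lay wholly above, at 2.67 ± 0.44 (SE; adjusted p = 4.2e-05), and at 1.65 ± 0.58 between high libraries (adjusted p = 0.11). Its neighbour Ifit2 had 6.18, 31.6 and 41.1 FPKM in TIC against 2.17, 5.16 and 4.24 FPKM in Acute (log2 change 2.22 ± 0.47, SE; adjusted p = 0.0006). In Ifit2 the gap was narrow, since TIC 5 at 6.18 FPKM was close to Acute 2, and between high libraries the change was 0.79 ± 0.57 (adjusted p = 0.42). Rsad2 encodes viperin, an enzyme that makes a chain-terminating nucleotide from the product of its neighbour Cmpk2. Rsad2 had 7.82, 24.9 and 35.0 FPKM in TIC, against 1.47, 3.60 and 1.68 FPKM in Acute. The groups were apart, with a log2 change of 2.70 ± 0.49 (SE; adjusted p = 0.00011) and of 1.70 ± 0.59 between high libraries (adjusted p = 0.11). Mx1, a GTPase that traps viral nucleocapsids, had 12.1, 46.5 and 94.6 FPKM in TIC, against 14.8, 8.26 and 10.6 FPKM in Acute. Here the groups met: TIC 6 at 12.1 FPKM lay below Acute 1. The change was 1.70 ± 0.49 (SE; adjusted p = 0.0083), and 0.33 ± 0.49 between high libraries (adjusted p = 0.71).

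The remaining effectors called higher were Cmpk2 (log2 change 1.19), Eif2ak2 (1.06), which encodes the kinase PKR, and Sp100 (0.85), a nuclear body protein. Between high libraries these 3 stood at 0.46, 0.25 and 0.89 and were not called (adjusted p = 0.71, 0.87 and 0.24). The call on Cmpk2 was lost without Acute 1 (0.80, adjusted p = 0.16). Eif2ak2 lost its call when any 1 of TIC 1 to 4, Acute 1 or Acute 3 was left out, with adjusted p from 0.05 to 0.48. Samhd1, a nucleotide-cleaving enzyme, was lower in TIC, with 0.795, 4.74 and 9.05 FPKM at the lowest, median and highest, against 6.35, 46.9 and 14.5 FPKM in Acute. TIC 5 reached into the Acute range. Its change of -1.92 ± 0.50 (SE; adjusted p = 0.0036) was -1.20 without Acute 2 (adjusted p = 0.065) and -1.17 ± 0.79 between high libraries (adjusted p = 0.39). More of the granulocyte and monocyte markers were highest in Acute 2 than in Acute 3. S100a9 was highest in Acute 2, at 11590 FPKM against 1267 FPKM in Acute 1 and 6765 FPKM in Acute 3. Prg2, Camp, Ngp, Mpo, Elane, Mmp8, Mmp9, Il1r2, Padi4 and Fcnb were also highest in Acute 2. Highest in Acute 3 were S100a8 (3348 FPKM, against 900 FPKM in Acute 2) and Np4 (762 against 469 FPKM). So were the rest of the list, Retnlg, Cxcr2, Csf3r, Lcn2, Cebpe and Plac8. The part of granulocytes in this result was not tested. Ifi35 was lower in all TIC libraries, at 24.4, 26.9 and 54.9 FPKM, than in any Acute one, at 74.7, 94.6 and 88.7 FPKM (log2 change -1.39 ± 0.31, SE; adjusted p = 0.00097). Between high libraries it was -0.79 ± 0.39 (adjusted p = 0.24).

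Bst2, tetherin, which holds budding virions at the cell surface, was not called: it had 0, 6.15 and 19.4 FPKM at the lowest, median and highest in TIC and 4.19, 3.43 and 4.79 FPKM in Acute (log2 change 0.28 ± 0.69, SE; adjusted p = 0.77). Ifitm3, which blocks fusion of viruses with cell membranes, was barely measured, at 0 in TIC 2 and TIC 3 and 1.29 to 4.53 FPKM in the other TIC libraries, against 0, 1.43 and 0 FPKM in Acute (adjusted p = 0.28). In both genes the groups overlapped. Mx2, Isg20, Adar, Zbp1, Rtp4 and Ifi44 were not called either, although Zbp1 was lower without TIC 4 (-1.40, adjusted p = 0.025) and Ifi44 higher without TIC 5 or TIC 6 (1.20 and 1.22, adjusted p = 0.047 and 0.041).

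The transcription factors divided. Irf7, the factor that amplifies type I interferon production, had 18.7, 250 and 379 FPKM at the lowest, median and highest in TIC, against 24.2, 34.9 and 5.53 FPKM in Acute. TIC 1 to 4 held 230 to 379 FPKM, TIC 6 held 65.5 FPKM, and TIC 5 at 18.7 FPKM lay within the Acute range. The change was 3.03 ± 0.76 (SE; adjusted p = 0.0028), and 1.00 ± 0.82 between high libraries (adjusted p = 0.47). Irf1, which interferon gamma and inflammatory signals induce, went the other way, with 8.17, 18.3 and 24.1 FPKM in TIC against 49.1, 68.5 and 68.5 FPKM in Acute. The groups were far apart, at -1.83 ± 0.37 (SE; adjusted p = 0.00044), and at -1.46 ± 0.41 between high libraries (adjusted p = 0.064). Stat2 and Irf9, of the type I complex, were not called. Stat2 had 23.2, 37.4 and 44.5 FPKM in TIC against 19.7, 27.4 and 46.7 FPKM in Acute (log2 change 0.20 ± 0.29, SE; adjusted p = 0.60). Irf9 had 21.8, 34.9 and 42.3 FPKM in TIC against 41.6, 25.2 and 61.8 FPKM in Acute (-0.28 ± 0.27, SE; adjusted p = 0.42). In both genes the groups overlapped.

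Of the cytoplasmic RNA sensors, Dhx58, which encodes LGP2, had 20.3, 34.4 and 44.0 FPKM at the lowest, median and highest in TIC, against 13.8, 7.20 and 5.08 FPKM in Acute. TIC lay wholly above, at 1.96 ± 0.32 (SE; adjusted p = 3.6e-05) and 2.12 ± 0.52 between high libraries (adjusted p = 0.041). Ifih1, the sensor MDA5, rose by 1.79 ± 0.42 (SE; adjusted p = 0.0016) but by 0.84 ± 0.72 between high libraries (adjusted p = 0.50). Ddx58, the sensor RIG-I, was not called (0.57 ± 0.31, SE; adjusted p = 0.14). Among the ADP-ribosylation and ubiquitin enzymes, Parp14 and Trim21 were called higher (1.06 and 1.00 on the log2 scale), but not between high libraries (0.24 and 0.61, adjusted p = 0.86 and 0.64). Parp14 lost the call without Acute 3 (0.49, adjusted p = 0.26), and Trim21 without any 1 of TIC 1, TIC 2, TIC 4, TIC 6, Acute 1 or Acute 2 (adjusted p from 0.056 to 0.24). Parp9 was called without Acute 2 alone (0.74, adjusted p = 0.025). The interferon gamma targets Gbp2 and Gbp5, guanylate-binding proteins that attack vacuoles holding microbes, were not called. Gbp2 had 21.6, 31.1 and 41.7 FPKM in TIC and 30.4, 41.7 and 42.8 FPKM in Acute, overlapping ranges (-0.32 ± 0.29, SE; adjusted p = 0.39).

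**Figure D2:**
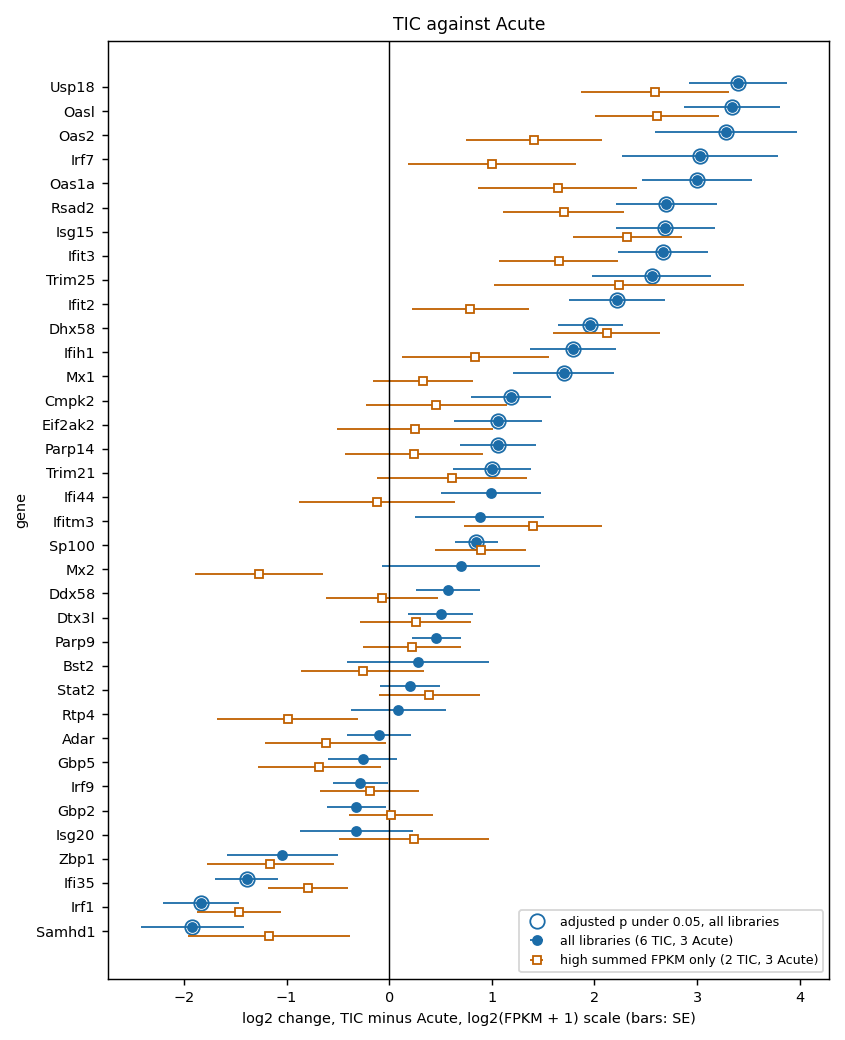
Log2 change of each member in TIC minus Acute on the log2(FPKM + 1) scale (horizontal axis; bars are the SE of the fit), from all libraries (filled circles, ringed where the adjusted p was under 0.05) and from the 5 libraries with high summed FPKM (open squares). Squares lie nearer to 0 than circles for most of the members higher in TIC, such as Irf7 (1.00 and 3.03) and Mx1 (0.33 and 1.70), while Isg15 (2.32 and 2.69) and Dhx58 (2.12 and 1.96) stay close.

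Serum was followed by lower levels of a few members. FCS 1d, FCS 3d and FCS 5d are each set against the same 6 TIC libraries, so these 3 comparisons are not independent. In FCS 1d, 0 members were higher and 1 was lower of 36, against 1.22% and 1.7% of all tested genes (2.92% in either direction). In FCS 3d, 0 were higher and 6 lower (16.7% lower, against 4.13% of all genes higher, 5.95% lower and 10.1% in either direction). In FCS 5d, 0 were higher and 6 lower (16.7% lower, against 4.81% of all genes higher, 8.1% lower and 12.9% in either direction). At an unadjusted p under 0.05 in limma, 1 member was higher and 6 lower in FCS 1d, 1 higher and 10 lower in FCS 3d, and 1 higher and 12 lower in FCS 5d. At this cut 7, 11 and 13 of the 36 members passed in either direction, beside 1201, 2142 and 2441 of all 9691 tested genes. The median log2 change of the members was -0.09, -0.33 and -0.34 at 1, 3 and 5 days, against -0.01, -0.06 and -0.08 for all tested genes.

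The spread within TIC bears on these counts. TIC 5 and TIC 6 were below all 4 other TIC libraries for 20 of the 36 members (55.6%), against 4.54% of all tested genes. After median-of-ratios rescaling the shares were 69.4% and 15.1%. As deposited, both libraries lay above the other 4 for 41.8% of all tested genes. Between libraries of low summed FPKM only, 6 members were lower in FCS 1d, 11 in FCS 3d and 11 in FCS 5d, and 0 were higher (of all genes, 3.02%, 7.03% and 9.07% were lower and 6.4%, 17.5% and 20.1% were called in either direction). With TIC 5 and TIC 6 left out, 4, 7 and 9 members were lower, against 1.45%, 3.54% and 5.48% of all genes. The lymphocyte and NK cell marker sum was 83.7 to 227 FPKM in TIC, 155 to 406 in FCS 1d, 120 to 142 in FCS 3d and 127 to 242 in FCS 5d, and the microglia and macrophage sum 2580 to 6690, 3380 to 6490, 4240 to 5610 and 4200 to 8690 FPKM. Granulocyte and monocyte markers summed to at most 180 FPKM in any serum group.

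Ifit3 and Rsad2 showed the largest falls. Ifit3 had 22.4, 60.7 and 80.3 FPKM at the lowest, median and highest in TIC. With serum it had 14.1, 25.4, 26.3, 29.4 and 53.4 FPKM in FCS 1d, 5.32, 8.23, 9.20 and 6.66 FPKM in FCS 3d, and 6.46, 6.06, 4.21 and 2.16 FPKM in FCS 5d. FCS 1d overlapped TIC, while FCS 3d and FCS 5d lay below every TIC library. The log2 change from TIC was -0.80 ± 0.38 at 1 day (SE; adjusted p = 0.39), -2.58 ± 0.40 at 3 days (adjusted p = 0.00019) and -3.18 ± 0.40 at 5 days (adjusted p = 8.3e-06). The calls at 3 and 5 days held under each of the 24 alternatives run for them.

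Rsad2 had 7.82, 24.9 and 35.0 FPKM at the lowest, median and highest in TIC. It had 3.19, 7.42, 3.90, 4.39 and 12.4 FPKM in FCS 1d, 0.500, 2.19, 3.77 and 3.03 FPKM in FCS 3d, and 6.07, 1.92, 3.01 and 0.946 FPKM in FCS 5d. The highest FCS 1d library reached into TIC, and none of FCS 3d or FCS 5d did. The change was -1.62 ± 0.42 at 1 day (SE; adjusted p = 0.031), -2.71 ± 0.44 at 3 days (adjusted p = 0.0003) and -2.51 ± 0.44 at 5 days (adjusted p = 0.00041). The call at 1 day was lost when any 1 of TIC 1 to 4, FCS 1d 1, FCS 1d 3 or FCS 1d 4 was left out (adjusted p from 0.067 to 0.10). Its neighbour Cmpk2 was lower at 5 days, by -1.10 ± 0.36 (SE; adjusted p = 0.045), with 5.71, 5.91, 4.10 and 1.75 FPKM in FCS 5d against 3.17, 11.6 and 15.7 FPKM at the lowest, median and highest in TIC. The groups overlapped through TIC 6 at 3.17 FPKM, and the call was lost without any 1 of FCS 5d 2, FCS 5d 3, FCS 5d 4 and TIC 1 to TIC 5 (adjusted p from 0.052 to 0.21).

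Isg15 and Usp18 were also lower at 5 days, and neither was called at 1 day. Isg15 had 34.5, 64.3, 44.4, 68.4 and 121 FPKM in FCS 1d, 10.8, 41.2, 53.7 and 36.8 FPKM in FCS 3d, and 32.9, 38.2, 30.9 and 8.05 FPKM in FCS 5d, against 61.2 to 138 FPKM in TIC. All libraries with 3 or 5 days of serum were below all TIC libraries. The change was -0.57 ± 0.41 at 1 day (SE; adjusted p = 0.67), -1.53 ± 0.44 at 3 days (adjusted p = 0.028) and -1.88 ± 0.44 at 5 days (adjusted p = 0.0052). At 3 days the call was lost without FCS 3d 1 (-1.05, adjusted p = 0.16), without FCS 3d 4 (adjusted p = 0.052) or without TIC 4 (adjusted p = 0.056). Usp18 had 38.5 to 43.6 FPKM in the 5 FCS 1d libraries, 20.1, 19.9, 27.4 and 22.3 FPKM in FCS 3d, and 13.6, 19.6, 21.2 and 3.02 FPKM in FCS 5d, against 22.3, 69.8 and 83.3 FPKM in TIC. FCS 5d lay below all TIC libraries, and FCS 3d overlapped TIC 5. The change was -0.43 ± 0.41 at 1 day (SE; adjusted p = 0.80), -1.29 ± 0.44 at 3 days (adjusted p = 0.062, and 0.02 without TIC 5) and -2.15 ± 0.44 at 5 days (adjusted p = 0.0015).

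Oasl was lower at both later times. It had 18.1, 25.0, 21.4 and 19.7 FPKM in FCS 3d and 25.3, 29.1, 46.6 and 6.13 FPKM in FCS 5d, against 49.7 to 145 FPKM in TIC. Neither serum group reached TIC, at -1.96 ± 0.43 (SE; adjusted p = 0.0039) and -1.90 ± 0.43 (SE; adjusted p = 0.0036). Isg20, an RNA-degrading nuclease, was close to the limit of measurement, with 0, 0, 0 and 0.653 FPKM in FCS 3d against 0, 3.20 and 7.85 FPKM at the lowest, median and highest in TIC. TIC 2, at 0, overlapped. It was called at 3 days (adjusted p = 0.023) and lost the call without any 1 of FCS 3d 1, FCS 3d 2, FCS 3d 3, TIC 3 or TIC 5 (adjusted p from 0.053 to 0.07). Gbp2 was lower at 3 days, with 7.50, 18.8, 12.7 and 17.6 FPKM, against 21.6, 31.1 and 41.7 FPKM in TIC, and no overlap. The change was -1.11 ± 0.26 (SE; adjusted p = 0.0079), -0.86 without FCS 3d 1 (adjusted p = 0.057). In FCS 5d Gbp2 had 17.3, 33.0, 33.5 and 25.7 FPKM, within the TIC range for 3 of 4 libraries (-0.18 ± 0.26, SE; adjusted p = 0.76).

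Other effectors of the same programme were not called against TIC at any time. Mx1 had 14.3, 31.2, 17.1, 25.9 and 22.4 FPKM in FCS 1d, 24.0, 44.6, 34.9 and 36.7 FPKM in FCS 3d, and 36.5, 66.8, 62.0 and 20.8 FPKM in FCS 5d, all inside the TIC range of 12.1 to 94.6 FPKM. Its log2 change at 5 days was 0.16 ± 0.45 (SE; adjusted p = 0.88), and at 1 day it was called lower among low libraries (-1.49 ± 0.36, SE; adjusted p = 0.018) and without TIC 5 and TIC 6 (-1.47, adjusted p = 0.013). Oas2 had 7.67 to 35.2 FPKM in FCS 1d, 20.5, 25.5, 16.4 and 17.6 FPKM in FCS 3d, and 21.1, 33.3, 22.5 and 7.90 FPKM in FCS 5d, against 0.343, 13.9 and 31.3 FPKM in TIC (1.04 ± 0.63 at 5 days, SE; adjusted p = 0.34). Oas1a had 22.2 to 34.6 FPKM in FCS 3d and 9.10 to 31.4 FPKM in FCS 5d, again within the TIC range of 6.66 to 44.5 FPKM (0.07 ± 0.49 at 5 days, SE; adjusted p = 0.96). Whether these genes differ in their response from Ifit3 or Rsad2 was not tested.

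Irf7 had 188, 324, 222, 199 and 99.7 FPKM in FCS 1d, 77.9, 130, 165 and 106 FPKM in FCS 3d, and 60.1, 80.4, 104 and 11.2 FPKM in FCS 5d, against 18.7, 250 and 379 FPKM in TIC. FCS 1d overlapped TIC 1 to 4 and lay above TIC 5 and TIC 6, FCS 3d lay between those 2 sets, and FCS 5d lay below TIC 1 to 4 and overlapped TIC 5 and TIC 6. The change at 5 days was -1.56 ± 0.70 (SE; adjusted p = 0.16), but -2.57 ± 0.47 among low libraries (adjusted p = 0.00083) and called without TIC 5 (-2.14, adjusted p = 0.017). Stat2 and Irf9 were not called, at -0.30 ± 0.26 (SE; adjusted p = 0.54) and -0.57 ± 0.25 (SE; adjusted p = 0.14) at 5 days. Bst2 had 2.89 to 25.9 FPKM in FCS 5d (0.97 ± 0.63, SE; adjusted p = 0.38), and Samhd1 3.34 to 9.54 FPKM (0.60 ± 0.45, SE; adjusted p = 0.47). At 5 days Ifit2 was called lower without TIC 5 (-1.26, adjusted p = 0.033), Rtp4 without TIC 6 (-1.28, adjusted p = 0.046) and Isg20 without TIC 2 (-1.89, adjusted p = 0.0052), and at 1 day Isg20 was called when either TIC 2 (adjusted p = 0.014) or FCS 1d 4 (adjusted p = 0.039) was absent. Zbp1, a sensor of left-handed nucleic acid, was called higher at 3 and 5 days without TIC 4 (1.62 and 1.65, adjusted p = 0.021 and 0.015). Ifitm3 was at 0 in 3 libraries of FCS 1d, in 3 of FCS 3d and in FCS 5d 4, and had 7.22, 3.18 and 6.60 FPKM in the other FCS 5d libraries (adjusted p = 0.51 against TIC).

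**Figure D3:**
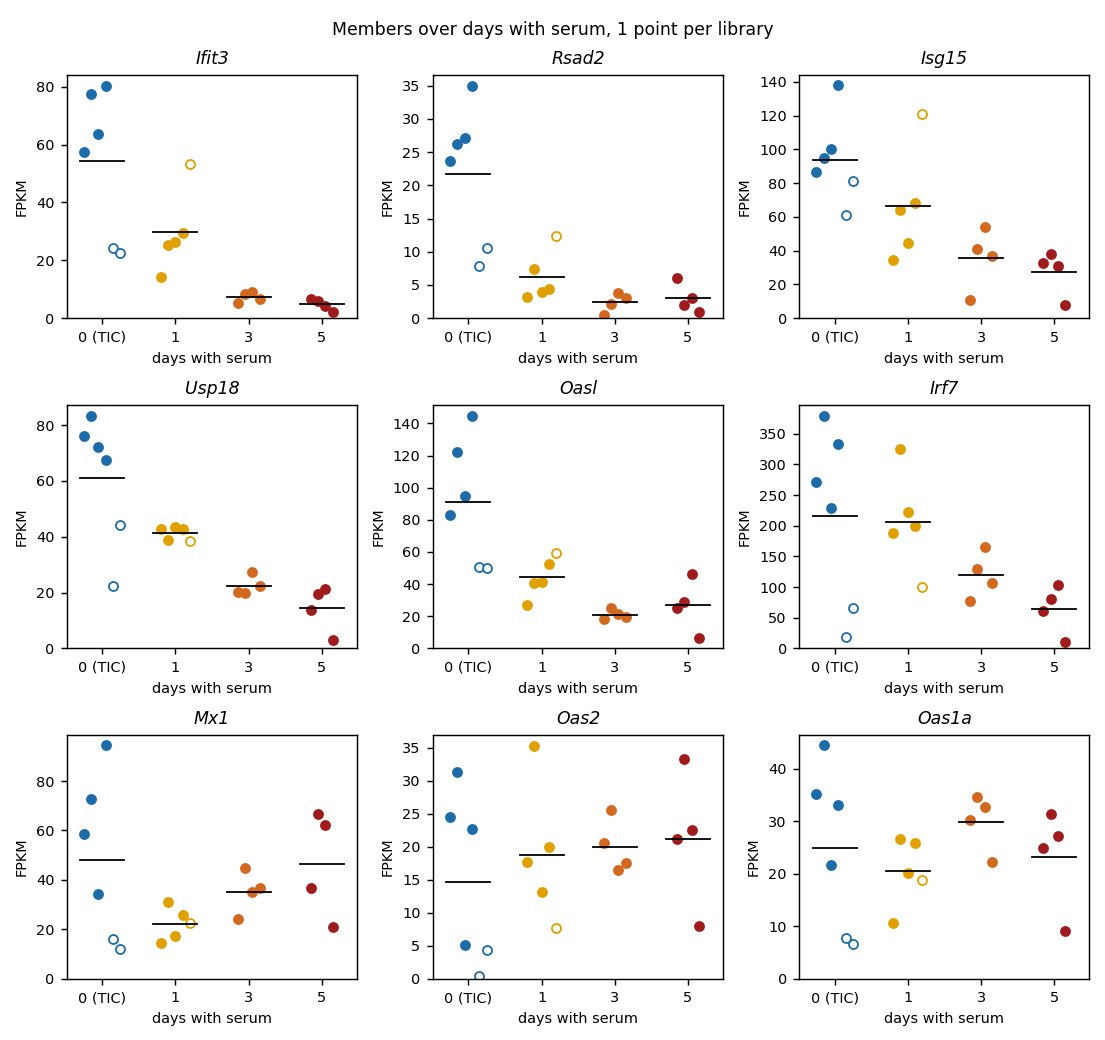
FPKM of 9 members (1 panel each, own vertical axis from 0) over days with serum, with 1 point per library, a line at the group mean, and open points for libraries with high summed FPKM. Ifit3, Rsad2 and Isg15 are below every TIC library at 3 and 5 days, while Mx1, Oas2 and Oas1a overlap TIC throughout.

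Within serum, FCS 5d against FCS 1d gave 0 members higher and 2 lower, against 1.92% of all genes higher, 3.46% lower and 5.38% in either direction (at an unadjusted p under 0.05, 2 and 8). At that unadjusted cut in limma, 10 of the 36 members and 1715 of all 9691 tested genes passed in either direction. Ifit3, with the values above, was lower by -2.38 ± 0.42 (SE; adjusted p = 0.00087), and its FCS 5d libraries all lay below its FCS 1d libraries. Usp18 was lower by -1.72 ± 0.45 (SE; adjusted p = 0.024), also without overlap. That call was lost without FCS 5d 4 (-1.17, adjusted p = 0.13) and without FCS 1d 3 (-1.70, adjusted p rounding to 0.05). Rsad2 was not called (-0.89 ± 0.46, SE; adjusted p = 0.33), nor were Isg15 (-1.31 ± 0.46, SE; adjusted p = 0.11), Irf7 (-1.95 ± 0.72, SE; adjusted p = 0.13) and Irf9 (-0.84 ± 0.25, SE; adjusted p = 0.056). Mx1 stood at 0.95 ± 0.47 (SE; adjusted p = 0.30). Dhx58 was called lower without FCS 5d 3 (-1.17, adjusted p = 0.034) and Ifitm3 higher without FCS 5d 4 (2.04, adjusted p = 0.046). Among low libraries 5 members were called in either direction, 13.9% of 36 against 10.3% of all genes. All 5 were lower, Irf7 with them (-2.19 ± 0.47, SE; adjusted p = 0.0051). FCS 5d 4 was the lowest of its group for 22 of the 36 members (61.1%), against 19.0% of all tested genes.

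FCS 5d against Acute gave 9 members higher and 4 lower, against 12.0% of all genes higher, 27.9% lower and 39.8% in either direction. This comparison shares its FCS 5d libraries with that against TIC and its Acute libraries with TIC against Acute, and all FCS 5d libraries have low summed FPKM while all Acute ones are high, so that within these 2 groups the comparison and the division in summed FPKM cannot be told apart. With a term for the division, estimated from the TIC and FCS 1d libraries on its 2 sides, 3 members were higher (Dhx58, Ifitm3 and Oas2) and 1 lower (Rtp4), against 16.0% of all genes higher and 12.6% lower. Oas2 had 7.90 to 33.3 FPKM in FCS 5d and was listed at 0 in Acute (adjusted p = 9.2e-05). Oas1a was higher by 3.07 ± 0.58 (SE; adjusted p = 0.00024), Mx1 by 1.86 ± 0.53 (SE; adjusted p = 0.0082) and Dhx58 by 1.54 ± 0.34 (SE; adjusted p = 0.0012), each with FCS 5d libraries above all Acute ones. Trim25 was higher by 2.33 ± 0.62 (SE; adjusted p = 0.0051), but 1.22 without Acute 2 (adjusted p = 0.074) and 3.64 without Acute 3. Oasl (1.44), Ifih1 (1.38), Ifit2 (1.29) and Parp14 (1.12) lost the call with 1 library less. For Oasl this was any 1 of FCS 5d 1 to 3, Acute 1 and Acute 3 (adjusted p from 0.056 to 0.12), and for Ifit2 any 1 of FCS 5d 1 to 3 and Acute 1 to 3 (0.052 to 0.19). For Ifih1 it was FCS 5d 3 or Acute 1 (0.057 and 0.17), and for Parp14 any 1 of FCS 5d 2, FCS 5d 3 and Acute 3 (0.06 to 0.24).

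Ifit3 and Rsad2, both higher in TIC than in Acute, were at 4.72 ± 1.97 and 2.99 ± 2.22 FPKM in FCS 5d (SD, n = 4) and at 7.49 ± 3.84 and 2.25 ± 1.18 FPKM in Acute (SD, n = 3). Neither difference was called (-0.51 ± 0.48 and 0.19 ± 0.53, SE; adjusted p = 0.41 and 0.80). Isg15, Usp18 and Irf7 were not called either, at 0.80, 1.25 and 1.47, and each was called without FCS 5d 4 (adjusted p = 0.043, 0.0037 and 0.039), Usp18 also without Acute 2 (adjusted p = 0.0079). Irf1 and Ifi35 were lower in FCS 5d, by -1.99 ± 0.40 (SE; adjusted p = 0.00048) and -1.75 ± 0.33 (SE; adjusted p = 0.00026). Isg20 and Irf9 were lower too, at -1.82 and -0.85. Isg20 lost its call without any 1 of Acute 1, Acute 2, FCS 5d 1 or FCS 5d 2 (adjusted p from 0.05 to 0.094), and Irf9 without any 1 of Acute 1, Acute 3 or FCS 5d 1 (adjusted p from 0.059 to 0.14). Calls were gained without 1 library by Mx2 (FCS 5d 4), Ifitm3 (FCS 5d 4 or Acute 2), Ddx58 and Eif2ak2 (Acute 2), Samhd1 (FCS 5d 3 or Acute 1), Gbp5 (Acute 1) and Rtp4 (Acute 3), at adjusted p from 0.0084 to 0.05, the last 3 lower in FCS 5d.

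The few interferons that the expression table lists were hardly detected. Ifna5, Ifna7, Ifna11, Ifna14, Ifna16l1, Ifne, Ifnw1, Ifnl1 and Ifnl3 were looked up and are not in it, so their levels are unknown. Of the type I and type II ligands, Ifna1, Ifna2, Ifnk and Ifng were listed at 0 in all 22 libraries. Ifnb1 had 0.857 FPKM in TIC 4 and 0.888 FPKM in FCS 1d 4 and was at 0 elsewhere, and Ifna4 had 7.40 FPKM in Acute 1 alone. With depth unknown, these zeros set no upper limit.

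Of 7 tested receptors and receptor kinases, 0 were higher and 4 lower in TIC than in Acute, where 14.7% of all tested genes were higher and 27.7% lower. The type I receptor chain Ifnar1 was not called: it had 43.0, 52.7 and 73.2 FPKM at the lowest, median and highest in TIC, against 26.7, 50.0 and 29.0 FPKM in Acute (0.66 ± 0.27, SE; adjusted p = 0.057). It was called higher without Acute 2, TIC 1 or TIC 4, and under both rescalings. Ifnar2 is not in the table. Ifngr1, the ligand-binding chain for interferon gamma, had 57.9, 67.8 and 224 FPKM in TIC, against 2371, 1621 and 1447 FPKM in Acute. The gap was wide, at -4.21 ± 0.44 (SE; adjusted p = 6.3e-08), and TIC 5 and TIC 6 were the TIC libraries with the most. Ifngr2, Il10rb and the kinase Tyk2 had log2 changes of -1.24, -1.66 and -1.08, and Tyk2 lost its call without Acute 2. In FCS 5d against FCS 1d, Ifnar1 was lower, with 22.9, 50.1, 41.4 and 59.8 FPKM in FCS 5d and 69.0, 87.3, 72.1, 80.8 and 112 FPKM in FCS 1d (-1.0 ± 0.26, SE; adjusted p = 0.023), without overlap. That call was lost without FCS 5d 1, FCS 5d 3 or FCS 1d 5.

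Among 7 tested STAT and IRF factors outside the members, 1 was higher and 2 lower in TIC than in Acute, against 14.7% and 27.7% of all tested genes. In the serum groups 0 of the 7 were called against TIC, where 2.92%, 10.1% and 12.9% of all genes were called at 1, 3 and 5 days. Irf3, which starts interferon production downstream of the sensors, was lower in TIC, with 15.4, 19.6 and 31.0 FPKM, against 86.9, 65.5 and 83.4 FPKM in Acute (-1.86 ± 0.29, SE; adjusted p = 1.8e-05). Of 10 negative regulators, 0 were higher and 3 lower in TIC (against 27.7% of all genes lower), among them Pias1 (-1.27 ± 0.32, SE; adjusted p = 0.0025). Between high libraries the calls on Ifngr2, Il10rb, Tyk2, Irf3 and Pias1 were lost, and that on Ifngr1 was kept.

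Of 16 tested genes of nucleic acid sensing, 2 were higher and 6 lower in TIC than in Acute, beside 14.7% and 27.7% of all genes. Tmem173, the adaptor STING that relays detection of cytosolic DNA, had 36.5, 49.3 and 97.2 FPKM in TIC, against 367, 240 and 333 FPKM in Acute (-2.49 ± 0.37, SE; adjusted p = 1.3e-05). In serum it had 33.1 to 92.3 FPKM in FCS 1d, 13.2 to 42.2 FPKM in FCS 3d, and 9.62, 11.3, 11.4 and 24.0 FPKM in FCS 5d. FCS 5d lay below all TIC libraries (-1.96 ± 0.34, SE; adjusted p = 0.00035). Tlr3, an endosomal sensor of double-stranded RNA, was lower in TIC, at 4.89 to 12.4 FPKM against 34.6 to 75.6 FPKM in Acute (-2.79 ± 0.31, SE; adjusted p = 2.3e-07). The calls on Tmem173 and Tlr3 in TIC against Acute were kept between high libraries. Ikbke, a kinase that acts on Irf3 and Irf7, was higher with serum at each time, by 1.46, 1.84 and 1.5 at 1, 3 and 5 days (adjusted p = 0.011, 0.0011 and 0.0048), at 0 to 0.691 FPKM in TIC and 1.10 to 5.39 FPKM over all serum libraries.

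Of 61 tested genes on a wider list of other interferon-stimulated genes, 13 were higher and 12 lower in TIC than in Acute (14.7% and 27.7% of all genes), with a median of -0.10. Against TIC, FCS 3d had 1 higher and 1 lower (4.13% and 5.95% of all genes), and FCS 5d had 4 higher and 6 lower (4.81% and 8.1%). Ifit1, of the family of Ifit2 and Ifit3, was higher in TIC, with 4.21, 16.0 and 33.4 FPKM against 0, 11.4 and 2.36 FPKM in Acute (2.10 ± 0.60, SE; adjusted p = 0.0074), the ranges overlapping, and lost the call without Acute 1 and between high libraries. Ifi27l2b had 83.1, 142 and 184 FPKM in TIC against 0, 1.15 and 13.4 FPKM in Acute (adjusted p = 5.8e-07). Cd274, the checkpoint ligand PD-L1, had 9.58 to 35.9 FPKM in TIC and was listed at 0 in all 3 Acute libraries (adjusted p = 3.5e-09). Ccl5, a chemokine that lymphocytes also make, went the other way, with 0 to 3.68 FPKM in TIC against 33.4, 136 and 82.7 FPKM in Acute (adjusted p = 3e-09). The calls on Ifi27l2b, Cd274 and Ccl5 were kept between high libraries. Cxcl10, a chemokine of both interferon types, was not called (0.86 ± 0.51, SE; adjusted p = 0.18), at 3.29 to 35.0 FPKM in TIC and 7.44 to 16.0 FPKM in Acute, but was called higher without TIC 6. With serum, Slfn2 fell at 3 days (-1.25 ± 0.25, SE; adjusted p = 0.0021), and Ifi47 and Epsti1 rose at 5 days (1.13 ± 0.24 and 1.13 ± 0.31, SE; adjusted p = 0.0021 and 0.015), Epsti1 not without FCS 5d 2. Ifi47 had 101, 133, 132 and 152 FPKM in FCS 5d against 32.5, 58.1 and 89.4 FPKM at the lowest, median and highest in TIC, with no overlap.

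Summed over the 36 members, the FPKM were 608.6 to 1590 in TIC, 779.8 to 1130 in FCS 1d, 592.7 to 825.6 in FCS 3d, 418.1 to 787.2 in FCS 5d and 542.6 to 615.4 in Acute. As a share of each library's FPKM this was 0.0874 to 0.448% in TIC, 0.148 to 0.289% in FCS 1d, 0.155 to 0.212% in FCS 3d, 0.104 to 0.193% in FCS 5d and 0.0779 to 0.109% in Acute. TIC 5 and TIC 6, at 0.0874 and 0.107%, had shares like those of Acute, while TIC 1 to 4 had 0.292 to 0.448%. Irf7 alone made up 20.4 to 24.0% of the sum in TIC 1 to 4, 3.08 and 8.75% in TIC 5 and TIC 6, and 1.02 to 5.67% in Acute.

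**Figure D4:**
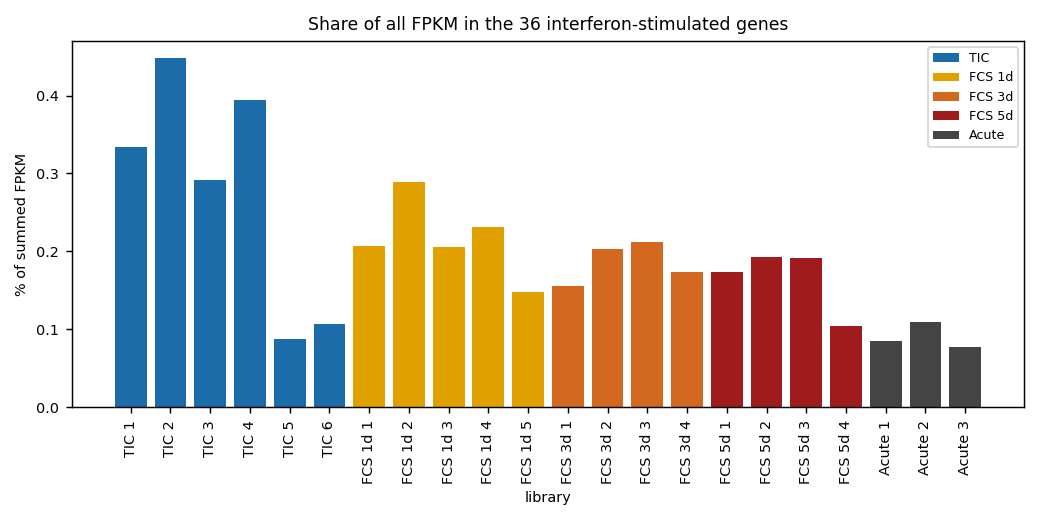
Summed FPKM of the 36 members as a percent of all FPKM (vertical axis, from 0) in each of the 22 libraries, in the order TIC, FCS 1d, FCS 3d, FCS 5d, Acute. TIC 2 has the largest share at 0.448%, and TIC 5, TIC 6 and FCS 5d 4 stand low in their groups at 0.0874, 0.107 and 0.104%.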

How the data were processed

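The deposited table gives FPKM per gene symbol, 1 column per sample, as the authors made them. Per the submitters' processing notes the tools were HISAT2 2.0.3 and Cufflinks 2.2.1, with rn6 as the build, and no role is recorded for either. No source used here gives an annotation, a filter or a scaling step. Per the labels' protocols, cDNA came from poly-A RNA by SmartSeq2 and libraries from Nextera XT, read from both ends. The Oas, Mx, Ifit, Ifitm, Gbp and Slfn families hold near copies, so their values are uncertain.

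From these values, log2(FPKM + 1) with a pseudocount of 1 was computed, and fold changes refer to it, which makes them too small for genes of low level. Genes reaching 1 FPKM in 3 or more of the 22 samples (9691) were fitted together, a mean per group, in limma 3.58.1 (R 4.3.3), with a variance trend and robust moderation, and p-values were two-sided and Benjamini-Hochberg adjusted over all of them. The fit was tested on simulated data before use. No batch entered, since the labels give none per sample. The steps between low values gave a clear estimate of relative depth in 7 libraries only, 0.841 to 1.11 times that of TIC 1. The closest libraries correlated at r = 0.979 and shared 0 identical values. The 36 members and all lists were chosen with earlier results of these data known. The rule for naming genes gave the values of up to 8 called members in each direction and comparison and of 13 fixed members, and of 9 fixed genes and up to 4 called ones in each other list, of which the text names a part, and 1 of them is not reported here. Promoter sequences are RefSeq's, of GRCr8, matched by symbol, and no position in rn6 is used.

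Alternatives were pseudocounts of 0.1 and 5, no filter or 5 FPKM, median-of-ratios rescaling, quantile normalization, fits to the compared groups alone, replicate number as a block, the divisions by summed FPKM (500000) and by zeros (800) as terms or as subsets, and each library left out.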

Additional observations from a re-analysis of the deposited data

Results flagged for a closer look

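In groups of 4 to 10 samples, 144 combinations of member and group were examined for a single library far from the rest, and 9 stood out, where chance gives about 1 in 20. In serum these were Isg15 in FCS 5d 4 (8.05 FPKM), Irf1 in FCS 3d 3 (3.32 FPKM), Isg20 and Ifitm3 in FCS 3d 4 (0.653 and 0.286 FPKM, with the other libraries of the group at 0), and Adar and Dtx3l in FCS 3d 1 (9.46 and 10.8 FPKM). In TIC they were Adar in TIC 5 (5.62 FPKM), Cmpk2 in TIC 6 (3.17 FPKM) and Dhx58 in TIC 1 (20.3 FPKM). The change also differed between 1 and 5 days of serum, by limma's test of FCS 5d against FCS 1d, for Ifit3 (log2 difference -2.38) and Usp18 (-1.72).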

How the results depend on the processing

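Across 49 called results of single members, 6 kept the call under every alternative run for them, and 5 had the other sign in at least 1 alternative without a call there. No call turned round. The number of members called in TIC against Acute (21) was 13 with a term for the division in summed FPKM, 3 in high libraries and 9 in libraries with few zeros. For FCS 1d against TIC (1) it was 0 with a pseudocount of 0.1, only the groups compared, high libraries, few zeros or many zeros (6, 5, 1, 4 and 6 at an unadjusted p under 0.05 in limma), 2 with the zeros division as a term, 4 without TIC 5 and TIC 6, and 6 in low libraries. In FCS 1d, at an unadjusted p under 0.05 in limma, 1141 of all genes passed with a pseudocount of 0.1 and 1166 with only the groups compared. With few zeros 1372 passed, and with many zeros 927. For FCS 3d against TIC (6) the number of members called was 11 in low libraries, 2 with few zeros and 3 with many. For FCS 5d against TIC (6) it was 11 in low libraries and 1 with many zeros. For FCS 5d against FCS 1d (2) it was 4 with only the groups compared, either division as a term or the replicate block, 5 in low libraries and 0 with many zeros. For FCS 5d against Acute (13) it was 8 with only the groups compared, 4 with the summed-FPKM term, 7 with few zeros and 5 with many. Of all genes, in the same order, 2831 of 9631, 2767 of 9691, 2161 of 9689 and 2652 of 9668 were called. The cause of these changes was not tested, beyond the smaller number of samples in subsets.

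Counts of all genes moved as well. TIC against Acute (4106) gave 3726 with the summed-FPKM term, 948 in high libraries and 1975 with few zeros. FCS 1d against TIC (283) gave 489 with the replicate block, 458 with the summed-FPKM term, 0 in high libraries (195 at an unadjusted p under 0.05, with the lone FCS 1d library assumed to vary like the other groups), 616 in low libraries, 129 with few zeros and 54 with many. FCS 1d against TIC also gave 226 with a pseudocount of 0.1, 234 with only the groups compared, 388 with the zeros term and 364 without TIC 5 and TIC 6. FCS 3d against TIC (977) gave 1686 in low libraries, 667 with few zeros and 193 with many. FCS 5d against TIC (1251) gave 1937 in low libraries and 131 with many zeros. FCS 5d against FCS 1d (521) gave 715 with only the groups compared, 707 with the summed-FPKM term and 762 with the replicate block. It gave 995 in low libraries, 817 with the zeros term and 47 with many zeros. FCS 5d against Acute (3861) gave 2161 with few zeros. Under median-of-ratios rescaling FCS 5d against Acute called 1864 genes higher and 1862 lower, against 1162 and 2699 as deposited, and 15 and 3 members. Quantile normalization called 762 higher and 753 lower in FCS 5d against TIC, against 466 and 785, with 1 member higher.

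Leaving out 1 library at a time gave 18 to 22 members for TIC against Acute, 0 to 1 for FCS 1d, 3 to 6 for FCS 3d (3 without FCS 3d 1) and 5 to 7 for FCS 5d against TIC, 1 to 3 for FCS 5d against FCS 1d (1 without FCS 1d 3), and 9 to 18 for FCS 5d against Acute. All genes called ran from 3236 to 4386, 212 to 339, 619 to 954 (619 without FCS 3d 2, 623 without FCS 3d 1), 816 to 1262 (816 without FCS 5d 4), 344 to 456 (344 without FCS 5d 2) and 3094 to 4233. Replicate numbers recur across groups. Deviations of same-numbered libraries correlated at -0.103 to 0.477, over 0.1 in 18 of 37 pairs, and 18 of 22 libraries correlated best with one of their own number, a hint from the data. The 22 include TIC 6, which has no same-numbered library in another group. Because not every pair was over 0.1 and the labels tie no number to an animal or day, the numbers were not used as pairs. The replicate block called 25, 1, 6, 9, 4 and 19 members in the 6 comparisons in the order above. Of all tested genes it called 4839, 489, 1132, 1458, 762 and 4573. It added Mx2, Zbp1, Ifi44, Ddx58 and Gbp2 and lost Trim21 in TIC against Acute, exchanged Isg15 for Usp18 in FCS 3d, added Ifit2, Rtp4 and Irf7 in FCS 5d against TIC, Rtp4 and Irf7 in FCS 5d against FCS 1d, and Mx2, Eif2ak2, Samhd1, Usp18, Irf7 and Gbp2 in FCS 5d against Acute.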
